A study of Mus musculus with 19 samples.

Results

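The genes described here are the 8 NADPH oxidase and dual oxidase genes Ncf1, Ncf4, Cyba, Cybb, Rac2, Nox4, Duox1 and Duox2, found by their Entrez identifiers among the 36528 gene identifiers of the count tables. They were chosen by symbol with measured values of these data in view, above all the Ncf1 counts of alveolar type II (AT2) cells from Etv5KO mice set against those of control AT2 cells. Values of the 8 genes in the comparison of Etv5KO with control AT2 cells are therefore a description and carry no test. Libraries were made from polyA RNA of mice.

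NADPH oxidases move electrons from NADPH across a membrane onto oxygen and so make superoxide or hydrogen peroxide on purpose. In the phagocyte oxidase the catalytic subunit gp91phox (Cybb, also called NOX2) sits in the membrane with p22phox (Cyba), and the enzyme works only after cytosolic subunits have joined it, among them the organizer p47phox (Ncf1), the modulator p40phox (Ncf4) and the GTPase Rac2. NOX1 uses the same p22phox with the relatives NOXO1 (organizer) and NOXA1 (activator), NOX4 needs p22phox but no cytosolic organizer, and the dual oxidases release hydrogen peroxide at epithelial surfaces together with the maturation factors DUOXA1 and DUOXA2. In lung, the phagocyte oxidase is best known from neutrophils and macrophages, NOX4 from fibroblasts, smooth muscle and endothelium, and the dual oxidases from airway epithelium.

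The Etv5KO mice carried SpcCreERT2, RosatdTomato and Etv5ko/loxp, and the control mice carried SpcCreERT2 and RosatdTomato. All mice received tamoxifen at 100 mg/kg over 5 days, and tissue was taken after another 5 days. Cre activity came from the surfactant protein C promoter. In whole lung, cell types that do not use this promoter keep the floxed allele. By the label Etv5ko/loxp, the other allele of the Etv5KO mice is a ko allele in every cell, and the control genotype lists neither allele. Effects of the ko allele and of Cre deletion therefore cannot be told apart in the genotype comparisons. AT2 cells had been sorted as EpCAM+, tdTomato+, CD45- and CD31- cells. The groups used here are AT2 cells of Etv5KO mice (n = 5), AT2 cells of control mice (n = 4), whole lung of Etv5KO mice (n = 5) and whole lung of control mice (n = 5). The labels give 5 mice for each genotype, and a further control AT2 library was not analysed here. They do not give the ages of the mice, and they do not say which mouse gave which library, so AT2 and lung libraries are not paired. Library numbers used below only follow the order in which the libraries of a group are listed. Equal numbers in different groups do not mean the same mouse.

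Library totals ran between 14971793 and 28671262 counts. The targeted gene Etv5 was at 718, 765, 760.3, 728 and 619.5 CPM (read counts over library totals scaled by the trimmed mean of M-values, TMM, over all 19 libraries) in the 5 Etv5KO AT2 libraries, against 725, 659.5, 646 and 626 CPM in the 4 control AT2 libraries, and was 112 ± 10.7 CPM in Etv5KO lung and 104 ± 7.31 CPM in control lung (SD, n = 5 each). Etv5 was not lower in the Etv5KO libraries (log2 fold change 0.10 in AT2 cells, edgeR adjusted p = 0.505). The counts are given per gene and the labels do not name the floxed exons, so this level does not check the genotypes, and Etv5KO stands throughout for the libraries labelled so. All 12 AT2 markers were higher in AT2 cells than in lung in both genotypes (edgeR, adjusted p under 0.05 each). All CPM values are on this scale.

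Etv5 is an ETS-family transcription factor, and ETS factors bind DNA around a GGAA core. The 250 bases upstream of the annotated start are shown for Ncf1, the member with the largest difference between Etv5KO and control AT2 cells. They are also shown for Noxo1 and Noxa1, genes of the NOX1 system called lower in the same comparison. The call on Noxo1 was lost in some settings, given below. The sequences come from the RefSeq annotation of GRCm38.p6, which is not the build to which the reads had been aligned (mm9). The window of Ncf1 lies at chr5:134229626-134229875 on the minus strand, that of Noxo1 at chr17:24695984-24696233 on the plus strand and that of Noxa1 at chr2:25095206-25095455 on the minus strand. Capitals mark the GGAA core, or TTCC where it lies on the other strand.
Ncf1: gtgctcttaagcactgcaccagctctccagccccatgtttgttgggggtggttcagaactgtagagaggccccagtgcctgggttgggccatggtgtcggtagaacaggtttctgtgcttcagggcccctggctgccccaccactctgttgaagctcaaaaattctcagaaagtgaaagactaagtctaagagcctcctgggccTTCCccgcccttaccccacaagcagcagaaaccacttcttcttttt
Noxo1: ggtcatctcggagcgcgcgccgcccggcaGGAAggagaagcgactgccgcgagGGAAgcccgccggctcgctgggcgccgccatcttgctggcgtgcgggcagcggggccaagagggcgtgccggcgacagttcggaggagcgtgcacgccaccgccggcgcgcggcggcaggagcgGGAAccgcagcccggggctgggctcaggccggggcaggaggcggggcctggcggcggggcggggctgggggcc
Noxa1: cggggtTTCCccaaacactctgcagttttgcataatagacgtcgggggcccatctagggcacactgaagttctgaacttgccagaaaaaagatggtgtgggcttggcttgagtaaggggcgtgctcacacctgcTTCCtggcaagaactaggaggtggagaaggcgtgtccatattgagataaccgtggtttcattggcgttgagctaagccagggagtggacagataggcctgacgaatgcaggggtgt

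The core occurred 1 time upstream of Ncf1, with its position given as -46 from the start. It occurred 3 times upstream of Noxo1 and 2 times upstream of Noxa1. Such matches are common: 93.5% of 32841 upstream windows of the same length hold the core on at least 1 strand, with a median of 3 matches. The longer strings CCGGAA and GAGGAAGT, which both contain the core, were found on neither strand upstream of these 3 genes, and are held by 12% and 2.44% of all upstream windows. Windows were given for 6 of the 8 members, and the other 5 of these also lacked both longer strings. A stretch just after the start was found in an annotated transcript of the gene for Ncf1 and Noxo1. It was not found for Noxa1, nor for Cyba among the other members, so this check did not bear out those starts. These are matches of letters only, with no binding data beside them.

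Ncf1, the organizer of the phagocyte oxidase, was higher in Etv5KO AT2 cells than in any other group. It was at 92.0, 92.1, 123, 92.2 and 95.9 CPM in the 5 Etv5KO AT2 libraries, against 23.0, 16.5, 23.8 and 22.1 CPM in the 4 control AT2 libraries. The groups do not overlap, and the lowest Etv5KO library stands far above the highest control library. The underlying read counts were 1426 to 2872 in Etv5KO AT2 libraries and 342 to 553 in control AT2 libraries, so counting error is small beside these levels. This is a 4.61-fold higher level (log2 fold change 2.20, SE 0.12, 95% interval 1.93 to 2.48).

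Whole lung lay between these levels. Ncf1 was at 65.2, 74.0, 65.8, 77.7 and 67.4 CPM in Etv5KO lung, against 66.9, 64.7, 58.4, 62.3 and 50.4 CPM in control lung. By mean level the order was Etv5KO AT2 cells (99.0 ± 13.5 CPM, SD, n = 5), Etv5KO lung (70.0 ± 5.53 CPM, n = 5), control lung (60.5 ± 6.49 CPM, n = 5) and control AT2 cells (21.4 ± 3.32 CPM, n = 4). On the TMM scale the 2 lung groups overlap, and no other neighbours in this order do. The gap between Etv5KO AT2 cells and Etv5KO lung depended on this scaling, as given below.

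**Figure D1:**
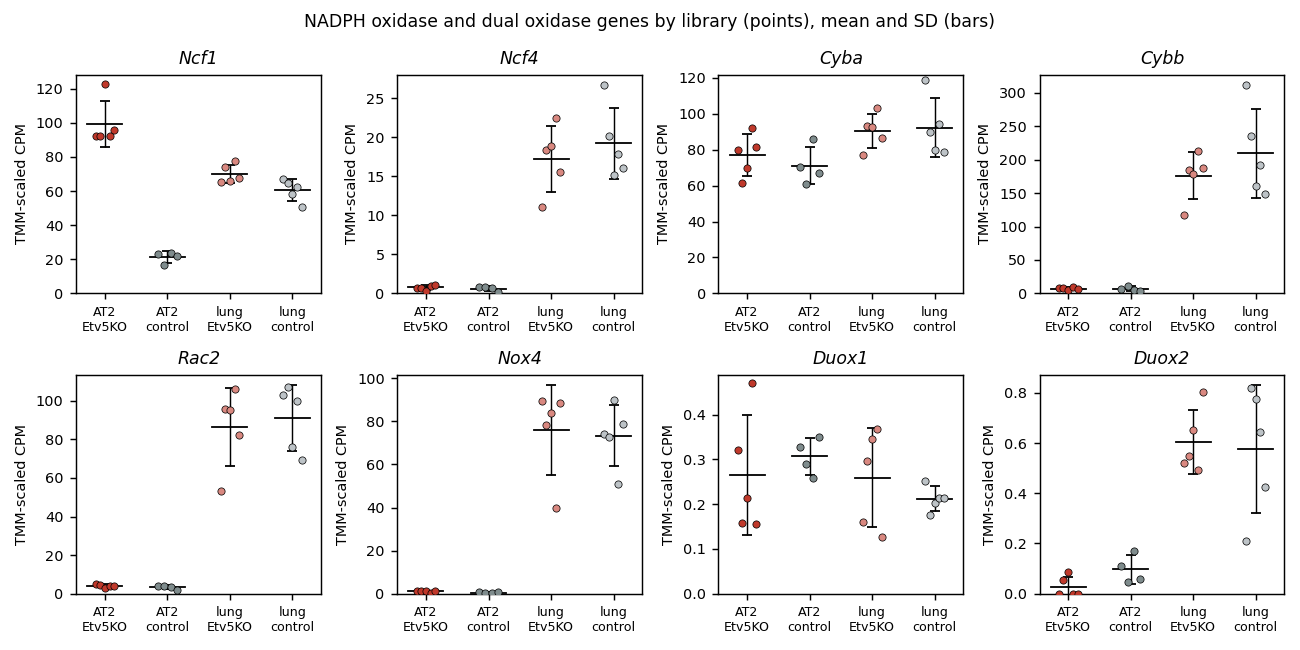
Level of each of the 8 genes in TMM-scaled CPM (vertical axes from 0, each gene on its own scale) in AT2 cells and whole lung of Etv5KO and control mice; points are libraries, long bars are means and short bars SDs. Ncf1 is the gene whose Etv5KO AT2 points lie apart from the control AT2 points, while Ncf4, Cybb, Rac2 and Nox4 lie near 0 in AT2 cells of both genotypes and Duox1 and Duox2 stay under 1 CPM in every library.

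The membrane subunit that many oxidases share was made in AT2 cells at close to its lung level. Cyba was at 80.0, 61.6, 69.9, 91.9 and 81.8 CPM in Etv5KO AT2 cells, against 70.6, 61.2, 85.9 and 67.2 CPM in control AT2 cells. The ranges overlap almost wholly, with a log2 fold change of 0.10 (SE 0.12, 95% interval -0.17 to 0.37).

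The catalytic subunit was scarce in AT2 cells of both genotypes. Cybb was at 7.61, 8.06, 4.41, 9.02 and 6.13 CPM in Etv5KO AT2 cells, against 7.18, 11.7, 5.30 and 3.03 CPM in control AT2 cells. The control range encloses the Etv5KO range, and Cybb had a log2 fold change of 0.03 (SE 0.33, 95% interval -0.69 to 0.74). In lung, Cybb averaged 176 ± 35.1 CPM in Etv5KO mice and 209.7 ± 66.2 CPM in control mice (SD, n = 5 each).

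The remaining cytosolic subunits were low as well. Ncf4, the p40phox modulator, was at 0.343 to 1.09 CPM in Etv5KO AT2 cells and 0.117 to 0.822 CPM in control AT2 cells, on counts of 8 to 21 and 2 to 17 reads. Rac2, the Rac GTPase of blood cells, was at 2.70 to 5.10 CPM in Etv5KO AT2 cells and 1.75 to 3.86 CPM in control AT2 cells. Both genes overlap between the genotypes, with log2 fold changes of 0.27 (95% interval -0.71 to 1.25) for Ncf4 and 0.31 (95% interval -0.22 to 0.84) for Rac2, intervals too wide to show that the levels are equal.

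Of the 8 members, 6 passed the filter on low counts in the AT2 comparison. Over all 14939 genes tested, 9.87% were called, 5.03% higher and 4.84% lower, and 12.1% had groups that do not overlap. Since the members were chosen with this comparison in view, no call is given for them.

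The 4 partner genes examined outside the 8 gave no call in AT2 cells (edgeR adjusted p from 0.0639 to 0.738, median log2 fold change 0.02 against -0.01 over all genes). Rac1, the Rac GTPase made by most cells, was at 184 ± 10.4 CPM in Etv5KO AT2 cells and 158 ± 9.36 CPM in control AT2 cells (SD, n = 5 and 4). Its ranges of 172 to 196 and 149 to 169 CPM do not overlap, with a log2 fold change of 0.21 (95% interval 0.07 to 0.35) and an edgeR adjusted p of 0.0639, which DESeq2 gave as 0.0261. Rap1a, a small GTPase found with the flavocytochrome, had a log2 fold change of -0.10, Cybc1, a chaperone of that flavocytochrome, 0.12, and the proton channel gene Hvcn1 -0.09 (edgeR adjusted p = 0.672, 0.348 and 0.738).

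Levels of different genes can be set side by side only per gene length, and the authors' RPKM column, scaled by size factors, gives this. In Etv5KO AT2 cells Cyba averaged 93.3, Ncf1 31.5, Cybb 1.39, Rac2 1.28, Ncf4 0.407 and Nox4 0.233 RPKM. In control AT2 cells the same genes averaged 85.9, 6.78, 1.34, 1.01, 0.321 and 0.119 RPKM. In control lung they averaged 114, 19.7, 42.2, 29.0, 10.5 and 16.5 RPKM. Ncf1 was thus the second of these subunits after Cyba in AT2 cells of both genotypes, but in lung it stood below Cyba, Cybb and Rac2 by mean level in both genotypes.

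Ratios within a library show the same uneven make-up. Ncf1 over Cybb, per length, had a median of 19.5 (16.5 to 45.0) in Etv5KO AT2 libraries and 6.22 (2.27 to 11.8) in control AT2 libraries. In lung this ratio was lower, with medians of 0.596 in Etv5KO lung and 0.523 in control lung. The Cybb over Cyba ratio, which does not hold Ncf1, had medians of 0.0155 in Etv5KO AT2, 0.0133 in control AT2, 0.323 in Etv5KO lung and 0.332 in control lung.

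**Figure D2:**
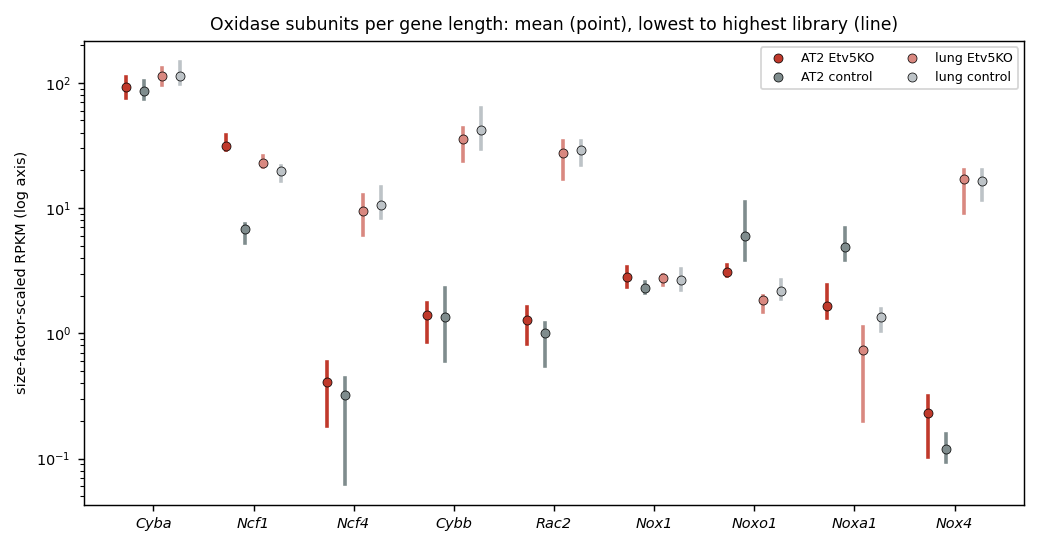
Authors' size-factor-scaled RPKM (log axis) of 9 oxidase subunits and regulators in AT2 cells and whole lung of Etv5KO and control mice; points are means and lines run between the lowest and the highest library. Ncf1 averages 31.5 RPKM in Etv5KO AT2 cells against 6.78 RPKM in control AT2 cells, while Noxa1 averages 1.66 RPKM in Etv5KO AT2 cells against 4.92 RPKM in control AT2 cells.

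Phagocytes make every subunit of this oxidase, so leukocyte markers were measured beside it. The sum of 16 macrophage markers ran between 120.4 and 163 CPM (median 136) in Etv5KO AT2 cells and between 122 and 192 CPM (median 163) in control AT2 cells. Cd14, an endotoxin co-receptor gene, set this order of the medians. It was at 15.7 to 35.9 CPM in Etv5KO AT2 cells and 52.1 to 80.3 CPM in control AT2 cells (log2 fold change -1.11, edgeR adjusted p = 0.00523), and its control AT2 level exceeded that of control lung (log2 fold change 1.13, edgeR adjusted p = 1.23e-05). The other 15 markers, a sum added after these values were seen, ran between 92.5 and 132 CPM (median 105) in Etv5KO AT2 cells and between 70.2 and 129 CPM (median 93.1) in control AT2 cells. In lung the sum of all 16 ran between 1611 and 2314 CPM in Etv5KO mice and between 1817 and 2482 CPM in control mice. Ptprc, which encodes the CD45 antigen that the sort excluded, averaged 8.36 CPM in Etv5KO AT2 cells and 8.66 CPM in control AT2 cells (log2 fold change -0.07, edgeR adjusted p = 0.913). Of the 16 markers 14 gave no call, Cd68, a lysosomal membrane protein gene, rose to 26.8 to 31.4 CPM in Etv5KO AT2 cells, against 15.8 to 24.2 CPM in control AT2 cells (log2 fold change 0.65, edgeR adjusted p = 0.00767), and Cd14 fell. Spi1, which encodes the ETS factor PU.1 that drives phagocyte oxidase genes in myeloid cells, the colony-stimulating factor receptor Csf1r and Adgre1 gave log2 fold changes of 0.19, -0.67 and -0.11 (edgeR adjusted p = 0.687, 0.0782 and 0.856). The sum of 10 neutrophil markers ran between 8.48 and 25.9 CPM in Etv5KO AT2 cells and between 10.1 and 20.3 CPM in control AT2 cells. No marker of either list was at 0 in a whole group.

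**Figure D3:**
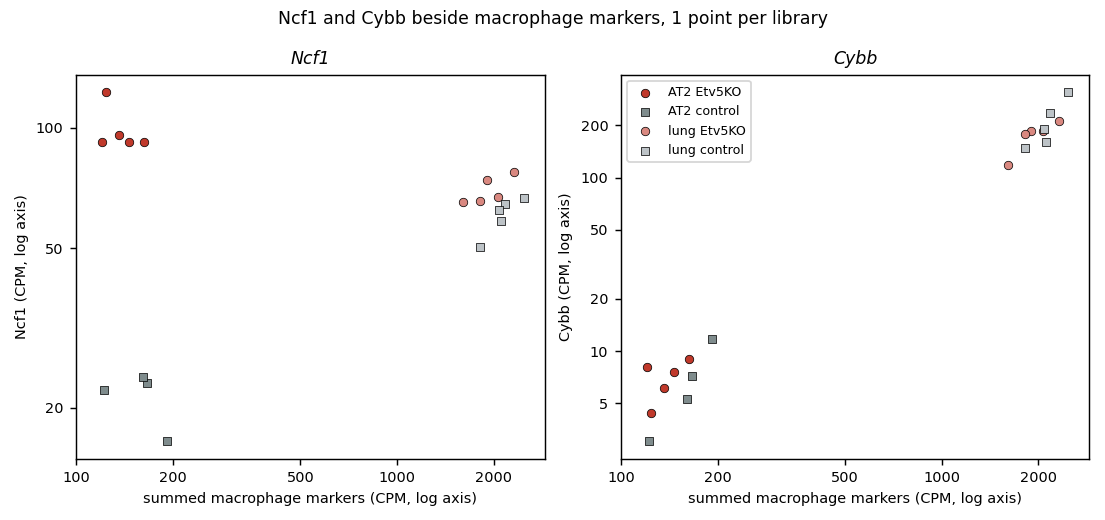
Ncf1 (left) and Cybb (right) in CPM against the summed CPM of 16 macrophage markers, both on log axes; each point is a library. Etv5KO AT2 libraries lie at 120.4 to 163 CPM of markers, with Ncf1 at 92.0 to 123 CPM, and control AT2 libraries at 122 to 192 CPM of markers, with Ncf1 at 16.5 to 23.8 CPM, while the Cybb levels overlap; Cd14 is part of the sum and is higher in control AT2 cells.

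AT2 markers and some markers of other cell types also differed between the AT2 groups. Over all genes tested there, 5.03% were called higher and 4.84% lower. Of 12 AT2 markers 3 were called lower in Etv5KO AT2 cells and none higher (median log2 fold change -0.28 against -0.01 over all genes). These were the surfactant protein gene Sftpa1 (log2 fold change -0.93), the chemokine gene Cxcl15 (-0.66) and the aspartic protease gene Napsa (-0.45; edgeR adjusted p = 0.00209, 0.0125 and 0.0301). The 12 summed to 161130.3 to 213349.9 CPM in Etv5KO AT2 cells and 178154 to 275515 CPM in control AT2 cells, so the ranges overlap. Summed ciliated markers ran between 173 and 229 CPM in Etv5KO AT2 cells and between 112 and 132 CPM in control AT2 cells, with 2 of 7 called higher. Those 2, Tppp3 (mean 154 CPM in Etv5KO and 95.8 CPM in control AT2 cells) and Dynlrb2 (26.4 and 16.6 CPM), made up most of the sum. The ciliated-cell factor gene Foxj1 averaged 2.74 CPM in Etv5KO and 2.79 CPM in control AT2 cells, and gave no call (log2 fold change -0.03, edgeR adjusted p = 0.945). It was the only marker of this list that did not average higher in Etv5KO AT2 cells. Rsph1 averaged 1.36 and 0.803 CPM, Ccdc39 5.33 and 5.09 CPM, Dnah5 0.628 and 0.534 CPM and Cdhr3 0.798 and 0.651 CPM. The list had a median log2 fold change of 0.29. Summed alveolar type I markers ran between 3852 and 4324 CPM in Etv5KO and between 2749.7 and 3554 CPM in control AT2 cells, with 4 called higher and 1 lower of 10. Ager (mean 3013 CPM in Etv5KO and 2230.4 CPM in control AT2 cells) made up most of this sum. Pdpn (6.37 and 9.99 CPM), Igfbp2 (6.70 and 7.96 CPM) and Aqp5 (496 and 606 CPM) averaged lower in Etv5KO AT2 cells. The other markers of this list averaged higher, and the list had a median log2 fold change of 0.36. Airway secretory markers summed to 635 to 973 CPM in Etv5KO and 319 to 738 CPM in control AT2 cells, with 3 called higher of 7 tested. Scgb1a1 (mean 461 and 405 CPM) and Cyp2f2 (361 and 114 CPM) made up most of this sum. The 9 lymphocyte markers summed to 45.9 to 64.7 CPM in Etv5KO and 27.2 to 49.0 CPM in control AT2 cells, with 1 called higher of 6 tested. Cd79b (mean 45.4 and 32.4 CPM) made up most of that sum. Cd3e (0.303 and 0.337 CPM) and Ncr1 (0.141 and 0.170 CPM) averaged lower in Etv5KO AT2 cells. The other lymphocyte markers averaged higher, and the 6 tested had a median log2 fold change of 0.51. Single markers were named for these sums after their values were seen. The part of these markers in the levels of Ncf1 and the other oxidase genes was not tested. In bulk RNA, more cells of a type and more RNA per cell cannot be told apart.

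Both regulators of NOX1 fell in Etv5KO AT2 cells. Noxa1, the activator of the NOX1 enzyme, fell to 2.77, 2.60, 2.66, 2.36 and 4.26 CPM in Etv5KO AT2 cells, against 8.44, 12.1, 6.89 and 7.41 CPM in control AT2 cells. The highest Etv5KO library lies below the lowest control library, and Noxa1 changed by -1.58 on the log2 scale (SE 0.22, 95% interval -2.06 to -1.10, edgeR adjusted p = 0.000818).

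Noxo1, the organizer that is the counterpart of p47phox, was at 8.96, 11.1, 9.38, 9.67 and 10.1 CPM in Etv5KO AT2 cells, against 14.7, 35.4, 14.3 and 12.3 CPM in control AT2 cells. These groups do not overlap either, and Noxo1 fell (log2 fold change -0.98, SE 0.27, 95% interval -1.58 to -0.38, edgeR adjusted p = 0.0451). Control library 2 stands apart from the others at 35.4 CPM, and without it the log2 fold change was -0.49 (edgeR adjusted p = 0.0125). The call was lost with scaling by library size only (edgeR adjusted p = 0.0831) and without any 1 of the 5 Etv5KO libraries (edgeR adjusted p from 0.0662 to 0.0969).

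Nox1, the catalytic subunit that these proteins serve, averaged 9.99 ± 1.42 CPM in Etv5KO AT2 cells and 8.35 ± 0.736 CPM in control AT2 cells (SD, n = 5 and 4). Its ranges overlap, and it gave no call (log2 fold change 0.25, 95% interval -0.03 to 0.52, edgeR adjusted p = 0.282). In the list of 7 other NADPH oxidases and regulators, 4 passed the filter, and Noxa1 and Noxo1 were the 2 called lower, with none higher (median log2 fold change -0.51 against -0.01 over all genes). Of all genes, 4.84% were called lower. Nox3, the oxidase of the inner ear, had no count in any library.

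The relation between the organizers therefore differed between the AT2 groups. Per length, Ncf1 over Noxo1 had a median of 9.69 (range 8.41 to 13.3) in Etv5KO AT2 libraries and 1.64 (0.474 to 1.83) in control AT2 libraries. It was 13.4 (lowest 10.8) in Etv5KO lung and 8.70 (8.10 to 10.9) in control lung. The Ncf1 value that chose the members enters this ratio, so it is a description.

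**Figure D4:**
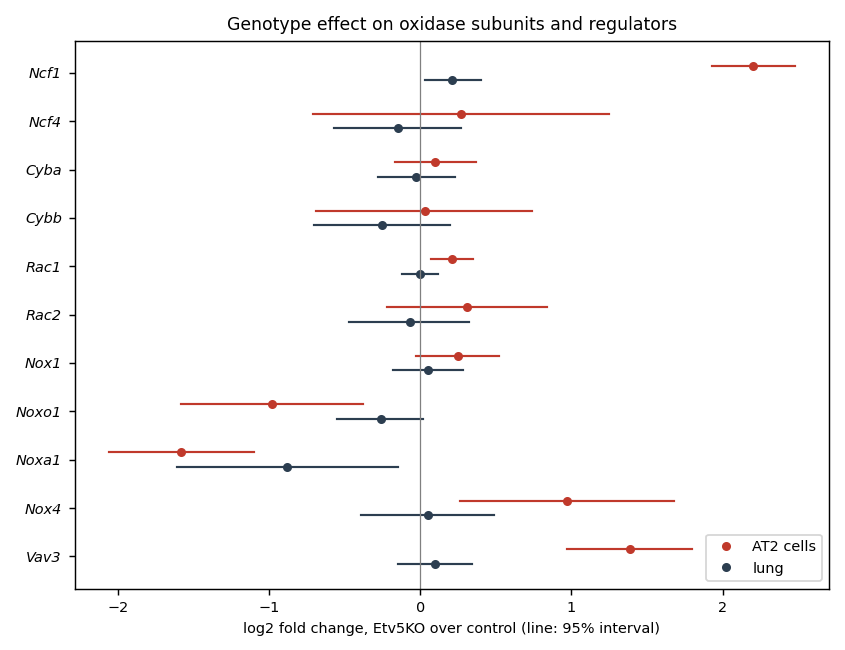
Log2 fold change of Etv5KO over control for 11 oxidase subunits and regulators, in AT2 cells (upper mark of each gene) and in whole lung (lower mark); points are edgeR estimates and lines 95% intervals. Ncf1 at 2.20 and Vav3 at 1.39 lie right of 0 in AT2 cells, and Noxa1 at -1.58 and Noxo1 at -0.98 left of it.

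Among 16 kinases and Rac regulators that act on the oxidase, 1 rose and none fell in Etv5KO AT2 cells (median log2 fold change 0.13 against -0.01 over all genes). Of all genes, 5.03% were called higher, so the count by itself is not unusual. Vav3, a guanine nucleotide exchange factor that loads Rac with GTP, was at 5.03, 8.11, 5.87, 5.60 and 5.40 CPM in Etv5KO AT2 cells, against 2.36, 2.41, 2.71 and 1.58 CPM in control AT2 cells. The groups do not overlap, and the rise was 2.61-fold (log2 fold change 1.39, SE 0.19, 95% interval 0.97 to 1.80, edgeR adjusted p = 0.000744). Both AT2 levels lie below those of lung, at 25.4 ± 4.62 CPM in Etv5KO lung and 23.8 ± 1.59 CPM in control lung (SD, n = 5 each).

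Among 13 enzymes that remove superoxide and hydrogen peroxide, 1 rose and none fell (median log2 fold change 0.01), where 5.03% of all genes were called higher. Sod3, the extracellular superoxide dismutase, was at 7.14 to 14.4 CPM in Etv5KO AT2 cells and 5.32 to 7.24 CPM in control AT2 cells, ranges that overlap slightly (log2 fold change 0.71, edgeR adjusted p = 0.0417). Its call was lost without any 1 of 6 of the 9 libraries (control 1, 3 or 4 and Etv5KO 1, 2 or 5), with an edgeR adjusted p of up to 0.113. Of 6 transcription factors of phagocyte oxidase genes, 5 passed the filter and none was called (median log2 fold change 0.09). Of 4 peroxidases that use hydrogen peroxide, only Pxdn, the peroxidase of the basement membrane, passed the filter, and it gave no call.

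Nox4, the oxidase without a cytosolic organizer, was at the low end of detection in AT2 cells. It was at 1.42, 1.22, 1.03, 0.472 and 1.14 CPM in Etv5KO AT2 cells, against 0.712, 0.434, 0.431 and 0.583 CPM in control AT2 cells, on 8 to 24 and 9 to 13 reads per library. Etv5KO library 4 lies within the control range and the other 4 lie above it, with a log2 fold change of 0.97 (SE 0.32, 95% interval 0.26 to 1.68). Lung held far more, at 76.0 ± 20.8 CPM in Etv5KO mice and 73.3 ± 14.1 CPM in control mice (SD, n = 5 each). Summed markers of fibroblasts and smooth muscle were at 66.6 to 113 CPM in Etv5KO AT2 cells, 52.2 to 81.2 CPM in control AT2 cells, 2908 to 4907 CPM in Etv5KO lung and 2974 to 4934 CPM in control lung, with none of the 12 markers at 0 in a group. Their part in the Nox4 level was not tested.

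The dual oxidases were near the limit of detection. Duox1 had 3 to 8 reads per library in Etv5KO AT2 cells, 6 in each control AT2 library, 3 to 9 in Etv5KO lung and 3 to 6 in control lung, too few to pass the filter in any comparison. Duox2 had 0, 1, 2, 0 and 0 reads in Etv5KO AT2 cells and 2, 1, 4 and 1 reads in control AT2 cells, so 3 libraries were at 0, where a count of 0 allows up to 3 reads. Lung held 12 to 19 Duox2 reads per library in Etv5KO mice and 5 to 23 in control mice. Of the maturation factors, Duoxa1 had 1 read in all 19 libraries together, and Duoxa2 had 0 reads in all Etv5KO AT2 libraries, 1 in control AT2 libraries, 13 in Etv5KO lung and 18 in control lung. A difference between genotypes was not detectable at this depth.

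In whole lung no member was called between Etv5KO and control mice, of 7 that passed the filter, where 0.415% of 17098 genes were called. DESeq2 called 192 genes in lung against 71 by edgeR. Ncf1 had a log2 fold change of 0.21 (SE 0.08, 95% interval 0.03 to 0.40) with an edgeR p of 0.0287, adjusted to 0.767, and was the only member with an unadjusted p under 0.05, which 5.52% of all genes reached. Of its 5 Etv5KO lung libraries 3 lie above the highest control lung library at 66.9 CPM, and the groups overlap, as did those of every other member (1.57% of all genes had lung groups that do not overlap). The other members gave log2 fold changes of -0.15 (Ncf4), -0.03 (Cyba), -0.25 (Cybb), -0.07 (Rac2), 0.05 (Nox4) and 0.06 (Duox2), with edgeR adjusted p from 0.978 to 0.992. The 95% interval of Cybb, -0.70 to 0.20, and that of Duox2, -0.63 to 0.75, leave room for sizeable differences.

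None of the oxidase lists held a call in lung. Noxa1 was at 0.346 to 1.94 CPM in Etv5KO lung and 1.82 to 2.70 CPM in control lung, with a log2 fold change of -0.88 (95% interval -1.61 to -0.15, edgeR adjusted p = 0.697). Noxo1 had -0.26 (edgeR adjusted p = 0.952) and Vav3 0.10 (edgeR adjusted p = 0.978). The mean Ncf1 difference between Etv5KO and control was 77.7 CPM in AT2 cells and 9.49 CPM in lung. The 12 AT2 markers had lung levels of 11.8% to 15.9% of their AT2 level in Etv5KO mice (median 15.1%). In control mice these were 10.4% to 16.1% (median 14.1%). The lung difference of Ncf1 was not called, and the part of AT2 cells in it was not tested.

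The difference of the genotype effects, AT2 minus lung, was 1.98 on the log2 scale for Ncf1 (SE 0.15, 95% interval 1.66 to 2.30). It was 0.40 for Ncf4, 0.12 for Cyba, 0.25 for Cybb, 0.36 for Rac2 and 0.91 for Nox4 (95% interval -0.08 to 1.90). Duox2 had -1.59 (95% interval -3.46 to 0.28), on 3 and 8 AT2 reads in all. Since this contrast contains the AT2 comparison, no call is given for the 7 members that passed the filter. Of all 17698 genes, 1.59% were called. Among the other oxidase genes Vav3 differed between AT2 cells and lung (1.27, 95% interval 0.83 to 1.72, edgeR adjusted p = 0.00231). For Noxo1 (-0.72, edgeR adjusted p = 0.420) and Noxa1 (-0.71, edgeR adjusted p = 0.654) a difference between AT2 cells and lung was not shown.

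Set against whole lung, control AT2 cells held less of every member that could be tested. All 7 were lower, where 38.9% of 17118 genes were called lower and 74.5% called in either direction. Ncf1 enters this count although the AT2 libraries that chose it are used, so nothing is read from its part in it. Nor is anything read from the part of Duox2, which passed the filter only through lung. It had 5 to 23 reads per control lung library and 1 to 4 per control AT2 library. Nox4 fell furthest (log2 fold change -7.09, edgeR adjusted p = 1.02e-10), then Ncf4 (-4.95, 4.34e-08), Cybb (-4.93, 1.31e-07) and Rac2 (-4.78, 2.24e-09). Duox2 had -2.45, with no p given because of the filter. Ncf1 was 1.50 lower on the log2 scale (-1.50, 95% interval -1.76 to -1.23; no p is given for it here, since the AT2 libraries that chose it enter). Cyba fell little (-0.37, 95% interval -0.66 to -0.07, edgeR adjusted p = 0.0269), and its call was lost without control AT2 library 1, 2 or 4 (edgeR adjusted p up to 0.0922). With scaling by library size only, the median of all genes was -0.42, 3318 genes were called higher and 9484 lower, against 6092 and 6662 with TMM, and Ncf1 had a log2 fold change of -1.91.

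The 4 partners were lower in control AT2 cells too, Hvcn1 (-2.83) more than Cybc1 (-0.80), Rac1 (-0.74) and Rap1a (-0.55). Noxa1 (1.91), Noxo1 (1.50) and the NOX4-interacting protein gene Poldip2 (1.41) exceeded their control lung levels in control AT2 cells (edgeR adjusted p = 2.52e-06, 0.000497 and 9.19e-09). Nox1 averaged 8.35 ± 0.736 CPM in control AT2 cells and 9.29 ± 1.35 CPM in control lung, with no call (-0.14, edgeR adjusted p = 0.339), but -0.55 and a call with library size only (edgeR adjusted p = 0.00475). Of the 13 removal enzymes 10 were higher in control AT2 cells, led by catalase, Cat (1.87, edgeR adjusted p = 5.61e-08), and 3 lower, among them Sod3 (-5.87, edgeR adjusted p = 3.16e-11). Over all 17118 genes, 6092 were called higher and 6662 lower.

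In Etv5KO mice the same comparison had Ncf1 on the other side. Nox4 (-6.16), Cybb (-4.66), Ncf4 (-4.53) and Rac2 (-4.41) were lower in Etv5KO AT2 cells than in Etv5KO lung (edgeR adjusted p at most 6.83e-06 each). Duox2 had -4.02, but it passed the filter only through lung, so nothing is read from its direction. It had 12 to 19 reads per Etv5KO lung library and 0 to 2 per Etv5KO AT2 library. Of all 16740 genes, 39.7% were called lower and 38.3% higher. No call is given for Ncf1, since the AT2 libraries that chose it enter. Ncf1 had a log2 fold change of 0.50 (95% interval 0.30 to 0.70). On the TMM scale every Etv5KO AT2 library lay above every Etv5KO lung library, where 65.5% of all genes had groups that do not overlap. The fold change of Ncf1 depended on the scaling: with library size only it was 0.13, beside a median over all genes of -0.36 and 3579 genes called higher and 9341 lower, against 6417 and 6646 with TMM. By library totals alone the 2 groups overlap. Etv5KO AT2 library 4 had 1563 Ncf1 reads of 20162229, and Etv5KO lung library 4 had 1895 of 21108384. Cyba had -0.23 with an edgeR adjusted p of 0.0640, and was called lower with library size only (edgeR adjusted p = 0.000137) and with RLE size factors (edgeR adjusted p = 0.0347). Noxa1 (1.22) and Noxo1 (0.79) were again higher in AT2 cells (edgeR adjusted p = 0.00484 and 1.56e-05). Both tissue comparisons use AT2 libraries that also enter the genotype comparison.

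The genes whose log2 CPM was most like that of Ncf1 over the 19 libraries, taken from the 12241 genes that averaged 5 CPM or more, were Cyp1b1 (Pearson r = 0.933), Endou (0.929), Gpr153 (0.922), Arhgap22 (0.918) and Col16a1 (0.914). None of these encodes an oxidase subunit. Over the 9 AT2 libraries alone they were Pde1b (0.994), Endou (0.994), Crip2 (0.992), Tspan1 (0.992) and Efhd2 (0.991). These r describe the ranking only, since the libraries fall into groups that share tissue and genotype, and Spearman's rho shared 1 of 5 genes with each list. Their log2 fold changes between Etv5KO and control AT2 cells ran from 0.50 (Crip2) to 2.77 (Cyp1b1). Likeness to Ncf1 chose these 9 genes over libraries that include that contrast, so the fold changes carry no test.

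Of the nearest protein-coding neighbours of Ncf1 on chromosome 5, a pair on each side, none was called in AT2 cells. Gtf2ird2, a relative of the transcription factor TFII-I, averaged 17.6 CPM in Etv5KO AT2 cells and 19.5 CPM in control AT2 cells, and Rcc1l 13.9 and 13.3 CPM in these groups (edgeR adjusted p = 0.422 and 0.865). Gtf2i, which encodes TFII-I, averaged 455 CPM in Etv5KO AT2 cells and 389 CPM in control AT2 cells (log2 fold change 0.21, edgeR adjusted p = 0.0848), and its ranges do not overlap. Gtf2ird1 averaged 34.7 and 34.4 CPM in the same order of groups (edgeR adjusted p = 1.00). Whether reads were counted by strand is not given in the sources used here, so reads of an overlapping transcript on the other strand cannot be told apart from those of a gene.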

How the data were processed

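Reads of 19 libraries had been aligned with GSNAP to mm9, per the submitters' processing notes; no source used here gives the counter, its annotation or its use of strand. The authors deposited whole-number counts per Entrez gene identifier and RPKM values scaled by size factors, per the file headers. Symbols came from a RefSeq gene table, which named 31049 of 36528 identifiers and 98.7% of counts. Each comparison was fitted with edgeR 4.0.16 (R 4.3.3, limma 3.58.1): quasi-likelihood test, TMM scaling, genes kept by filterByExpr (minimum count 10, minimum total 15), two-sided, Benjamini-Hochberg adjustment over all genes tested, threshold 0.05. Standard errors and 95% intervals follow from the same fits. DESeq2 1.42.0 was an alternative. Depth was 14971793 to 28671262 counts per library, and limits for counts of 0 cover counting error only.

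The 8 members and the gene and marker lists were chosen with earlier results of these data known. Named besides the members were Etv5, the partners, up to 4 genes per list, comparison and direction with the smallest p past the threshold, the neighbours of Ncf1, the 5 genes most like it, and leukocyte markers; 1 partner gene is not reported here. Replicates differed by more than sampling noise (chi-square per degree of freedom 7.3 to 56.9).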

Additional observations from a re-analysis of the deposited data

Results flagged for a closer look

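In 32 sets of member levels, each the libraries of 1 group, the highest or lowest library was compared with its nearest neighbour, a check that chance alone trips in about 1 of 20 sets. It picked out 3 libraries. Ncf1 at 123 CPM in Etv5KO AT2 library 3 lay above the other 4 libraries of its group, its gap to the nearest taking 0.874 of the group's range. Rac2 at 1.75 CPM in control AT2 library 4 lay below the other control AT2 libraries (0.886 of the range). Nox4 at 39.6 CPM in Etv5KO lung library 4 lay below the other Etv5KO lung libraries (0.773 of the range). Without Etv5KO AT2 library 3 the log2 fold change of Ncf1 in AT2 cells was 2.12, against 2.20 with it.

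The genotype effect on Vav3 was larger in AT2 cells than in lung by 1.27 on the log2 scale (edgeR adjusted p = 0.00231), at 1.39 in AT2 cells, where all 5 Etv5KO libraries lie above all 4 control libraries, and 0.10 in lung, where the groups overlap.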

How the results depend on the processing

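No paired analysis was possible because the labels carry no replicate numbers and do not tie libraries to mice. Leaving out 1 library at a time, the log2 fold change of Ncf1 between Etv5KO and control AT2 cells lay between 2.10 and 2.26, and with RLE size factors, library size only, no filter on low counts, DESeq2 or 1 fit over all 19 libraries it lay between 2.20 and 2.27. The lung count of 71 called genes became 192 with DESeq2 and 122 with 1 fit over 19 libraries, and 44 to 80 without 1 library (47 without control lung library 3, 44 without library 4). The count for the AT2 minus lung effect, 282, became 455 with DESeq2, and 198 to 319 without 1 library. The AT2 count of 1474 lay between 1062 and 1587 without 1 library, and its split of 751 higher and 723 lower became 894 and 482 with library size only.

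Some values changed sign. In AT2 cells, leaving out 1 library gave ranges of -0.21 to 0.43 for Cybb and -0.03 to 0.48 for Ncf4. In lung, leaving out 1 library gave ranges of -0.08 to 0.08 for Cyba, -0.16 to 0.06 for Rac2, -0.06 to 0.21 for Nox4, -0.15 to 0.23 for Duox2, -0.02 to 0.02 for Rac1 and -0.00 to 0.13 for Nox1. Rac1 in lung was also 0.02 with library size only, 0.01 without the filter and 0.01 with 1 fit. Nox1 in Etv5KO AT2 cells against Etv5KO lung was -0.30 and called with library size only (adjusted p = 0.0324), and -0.01 to 0.12 without 1 library. The cause of these changes was not tested. Depth limits Duox1, Duox2 and, in AT2 cells, Ncf4 and Nox4, and the call on Rac1 in AT2 cells passed with library size only (adjusted p = 0.0202), DESeq2 (0.0261) and 1 fit (0.0342).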
